A study of Mus musculus with 7 samples.

Results

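Interferon-stimulated genes are the set that cells switch on when interferon, a secreted alarm protein of antiviral defence, binds its receptor. The 41 genes described here were taken by name from a list of known targets and regulators of interferon, and all 41 were found among the 53715 genes listed in the deposited expression table. Their levels were not used to choose them, although earlier results of these data were known when the list was drawn up. They were compared between cells reprogrammed with R406, which inhibits the kinase Syk, and cells reprogrammed with its solvent DMSO. Of the 41, 32 were high enough to be tested. At a threshold of 0.05 on the adjusted p, 16 of the 32 were higher with R406 and 0 were lower. Of all tested genes, 4.26% were higher and 4.05% lower.

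As background, type I interferon binds a receptor made of Ifnar1 and Ifnar2, whose kinases Jak1 and Tyk2 phosphorylate factors that include Stat2. With Irf9 these form a complex that binds the interferon-stimulated response element in the promoters of target genes. The targets include effectors that block steps of virus growth, sensors of viral RNA or DNA, and the signalling genes themselves, so the response can feed on itself, while Usp18 acts as a brake. Interferon gamma uses a separate receptor, acts through the gamma-activated sequence and drives guanylate-binding proteins and other GTPases.

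The cells were embryonic fibroblasts of embryonic day 13.5 from OG2 mice, a CBA line that carries a transgene with a green fluorescent reporter under Pou5f1 control. Both groups grew in Stage 1 medium of chemical reprogramming, which holds bFGF, VPA, CHIR99021, 616452, Parnate, Forskolin, AM580, EPZ004777 and vitamin C, under a protocol of 12 days. RNA was sequenced from 2 libraries with DMSO and 2 with R406, and the labels do not tell whether these were separate cultures. The spread behind each p-value is therefore that between these libraries and may be technical. CUT&Tag, which tags the DNA near a bound antibody, was run for FLAG-tagged Nfatc1 in cells of the same strain that carried lentiviral rtTA and a doxycycline-driven Flag-Nfatc1 construct and were kept 4 days in DMSO or R406, with 1 library per condition. The dose of R406 and the day of RNA harvest are not stated in the labels used.

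Levels are in TPM, a transcript abundance that is scaled by gene length and sums to a fixed total, so the number of reads behind a value is unknown. The libraries had 13537 to 14045 genes at 1 TPM or more. Ribosomal protein genes held a share of TPM of 15.5% and 17.3% with DMSO and of 21.3% and 24.7% with R406. Of 12 tested fibroblast and mesenchyme markers, 2 were higher and 2 lower. Of 10 tested markers of extraembryonic endoderm 6 were higher, and all 12 summed to 2840 and 2151 TPM in DMSO and 4737 and 2781 TPM in R406. Without Sparc, the most abundant, they summed to 199 and 181 TPM against 1446 and 752 TPM. Of 12 tested macrophage markers 11 fell. The summed TPM of all 17 macrophage markers was 295 and 248 in DMSO against 21.9 and 23.9 in R406. The tested marker that did not fall was Cd14, at 14.8 and 9.04 against 14.2 and 15.4 TPM. Aif1, too low to test, overlapped between the groups. Neither R406 library had a value above 0 for Ctss, Itgam, Ptprc or Cx3cr1. In DMSO Ctss stood at 2.68 and 1.97 TPM. Already low there were Itgam (0.256 and 0.156 TPM), Ptprc (0.0829 and 0.142 TPM) and Cx3cr1 (0.135 and 0.0144 TPM). Of the lymphocyte and plasmacytoid markers Cd3e, Cd3g and Siglech were listed at 0 everywhere. The part of these shifts in cell type markers in the results below was not tested, and in bulk samples fewer cells of a type and less RNA per cell cannot be told apart.

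Promoter sequences are shown first, since the response element is what many of these genes share. RefSeq promoter windows on GRCm38.p6, from 250 bases before to 50 bases after an annotated start, were matched for 31 of the 41 genes. The core of the response element, GAAA, any 2 bases and GAAA again, on either strand, was present in the windows of 17 of these 31 (54.8%), against 3.99% of all 27025 genes with a window and 3.43% of 9924 tested genes. Among genes that rose, 9 of 13 with a window held it. The promoter stretches below belong to the 8 of those 9 with the smallest p, the ninth being Ddx58. Only the windows were searched, so every core found lies near an annotated start by design. They are written 5′ to 3′ in the direction of the gene, with cores in capitals, cut 50 bases on either side of the cores or at the end of the window, and at most 30 bases into the transcript.
Bst2, chr8:71537537-71537652, minus strand: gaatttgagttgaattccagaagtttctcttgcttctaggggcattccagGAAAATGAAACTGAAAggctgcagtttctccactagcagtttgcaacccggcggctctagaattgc
Ifitm3, chr7:141010715-141010792, minus strand: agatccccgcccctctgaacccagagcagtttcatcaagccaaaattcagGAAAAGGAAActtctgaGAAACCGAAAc
Isg15, chr4:156200825-156200946, minus strand: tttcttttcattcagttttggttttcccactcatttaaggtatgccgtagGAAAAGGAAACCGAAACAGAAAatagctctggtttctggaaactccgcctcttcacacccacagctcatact
Ifit1, chr19:34640735-34640863, plus strand: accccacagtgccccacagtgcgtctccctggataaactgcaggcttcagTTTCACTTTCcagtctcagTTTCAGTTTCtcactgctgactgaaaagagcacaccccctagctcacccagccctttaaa
Gbp3, chr3:142559949-142560064, plus strand: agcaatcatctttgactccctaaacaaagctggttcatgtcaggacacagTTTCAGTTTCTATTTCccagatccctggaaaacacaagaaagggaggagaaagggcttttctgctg
Ifit3, chr19:34583323-34583466, plus strand: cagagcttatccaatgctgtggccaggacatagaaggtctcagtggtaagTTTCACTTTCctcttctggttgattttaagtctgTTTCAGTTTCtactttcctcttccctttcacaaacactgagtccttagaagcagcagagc
Oas1a, chr5:120907496-120907595, minus strand: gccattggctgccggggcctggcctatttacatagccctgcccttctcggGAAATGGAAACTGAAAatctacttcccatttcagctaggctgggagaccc
Cxcl10, chr5:92349043-92349139, minus strand: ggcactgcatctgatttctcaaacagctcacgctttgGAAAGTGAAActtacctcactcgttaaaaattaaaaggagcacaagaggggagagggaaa

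Isg15 held 3 overlapping cores, at −78 to −57 from the start, and Bst2 held 2 overlapping cores at −130 to −115. In Ifit1 and Ifit3 the 2 cores were separate, and in Ifitm3 both lay just inside the transcript, at 2 to 11 and 19 to 28. The 4 genes that rose and had no core in their windows were Ifitm1, Oasl2, Irf9 and Xaf1, which says only that these letters are not in these windows. A core was also found in 5 of 13 windowed genes that were tested and not called (Ifitm2, Gbp2, Ifih1, Stat2 and Eif2ak2) and in 3 of 5 that were too low to test. The gamma-activated sequence TTCNNNGAA was in the windows of 10 of the 31 genes, against 9.55% of all genes with a window, and in 3 of the 13 that rose. A match is a description of letters and not a measured site.

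**Figure D1:**
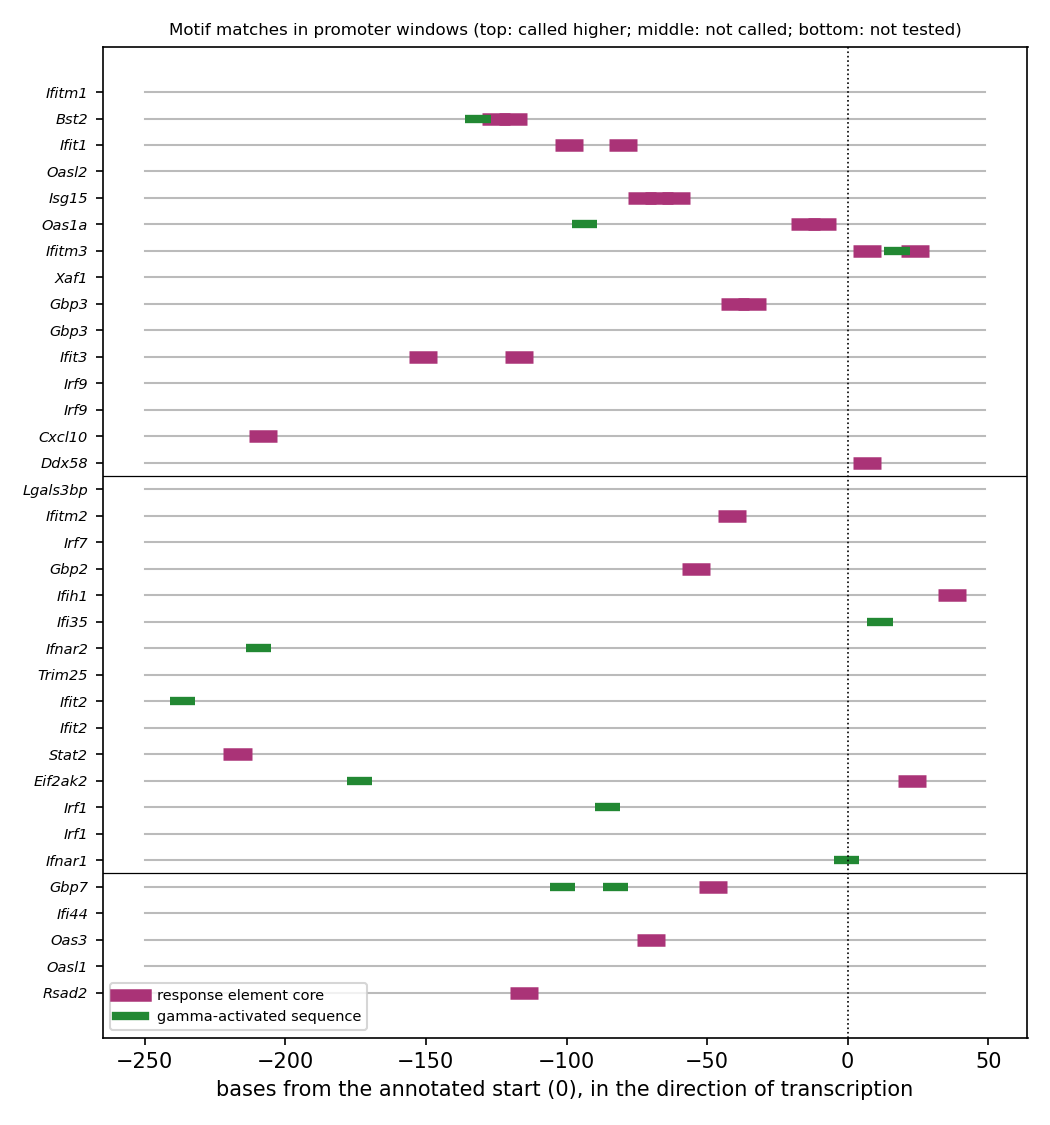
Matches to the response element core (purple) and the gamma-activated sequence (green) in each RefSeq promoter window of the interferon-stimulated genes, in bases from the annotated start. The windows of genes that rose are above the first line, those tested and not called between the lines, and those too low to test below, and a gene with 2 annotated starts has 2 rows; cores sit in 9 of 13 genes of the upper block and 5 of 13 of the middle block.

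Of the 41 genes, 32 averaged 1 TPM or more across all 4 libraries and were tested, among 13929 genes in all. R406 was compared with DMSO by limma on log2(TPM + 1), with Benjamini-Hochberg adjustment over all 13929 genes, and "rose" or "fell" below means an adjusted p of at most 0.05. By this rule 16 rose and 0 fell, where 4.26% of all tested genes were higher and 4.05% lower (8.31% in either direction). An unadjusted p under 0.05 with a positive difference was reached by 20, against 12.3% of all genes. The median log2 difference was 1.05 over the 32 genes and −0.02 over all genes tested. Since a gene can pass the filter through its R406 level alone, the 30 tested genes with a DMSO mean of at least 1 TPM were also counted: 15 rose, against 3.23% of all genes chosen the same way.

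In 28 of the 32 genes both R406 libraries lay above both DMSO libraries, against 25.9% of all tested genes, and in 2, Ifnar1 and Eif2ak2, both lay below, against 30.2%. The groups overlapped in Irf1 and Zbp1. Values of all 41 genes summed to 2204 and 1989 TPM in DMSO and to 5391 and 5096 TPM in R406. Ifitm2, Ifitm3 and Bst2 alone made up 81.8% to 85.3% of each sum. Without these 3 the sums were 402 and 361 TPM against 888 and 751 TPM, so the R406 libraries stood higher in the remaining genes too. The annotated spans of 15 of the 41 genes, introns included, share bases with another annotated gene. Of these, 7 are among the 16 that rose (Isg15, Ifit1, Ifi27, Rtp4, Usp18, Gbp3 and Cxcl10). The library kit does not mark strand, so strand cannot separate reads from the shared stretches. Whether exons overlap was not examined.

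The calls rested on few libraries. Without DMSO replicate 1 only Ifitm1 was called, without DMSO replicate 2 there were 7 calls, without R406 replicate 1 there were 13 and without R406 replicate 2 there were 14. The 7 were Ifitm1, Isg15, Ifit1, Oasl2, Bst2, Rtp4 and Xaf1. In each of these refits the remaining library of the reduced group is assumed to vary like the others. The number of all genes called also changed from refit to refit. Across the refits the median log2 difference of the 32 genes was 0.95 to 1.09, and that of all genes tested −0.14 to 0.09. With no filter on low values 0 of the 41 were called by limma, as were 0 of all 27879 genes then tested, while 22 of the 41 had an unadjusted p under 0.05 and 38 had a positive difference.

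**Figure D2:**
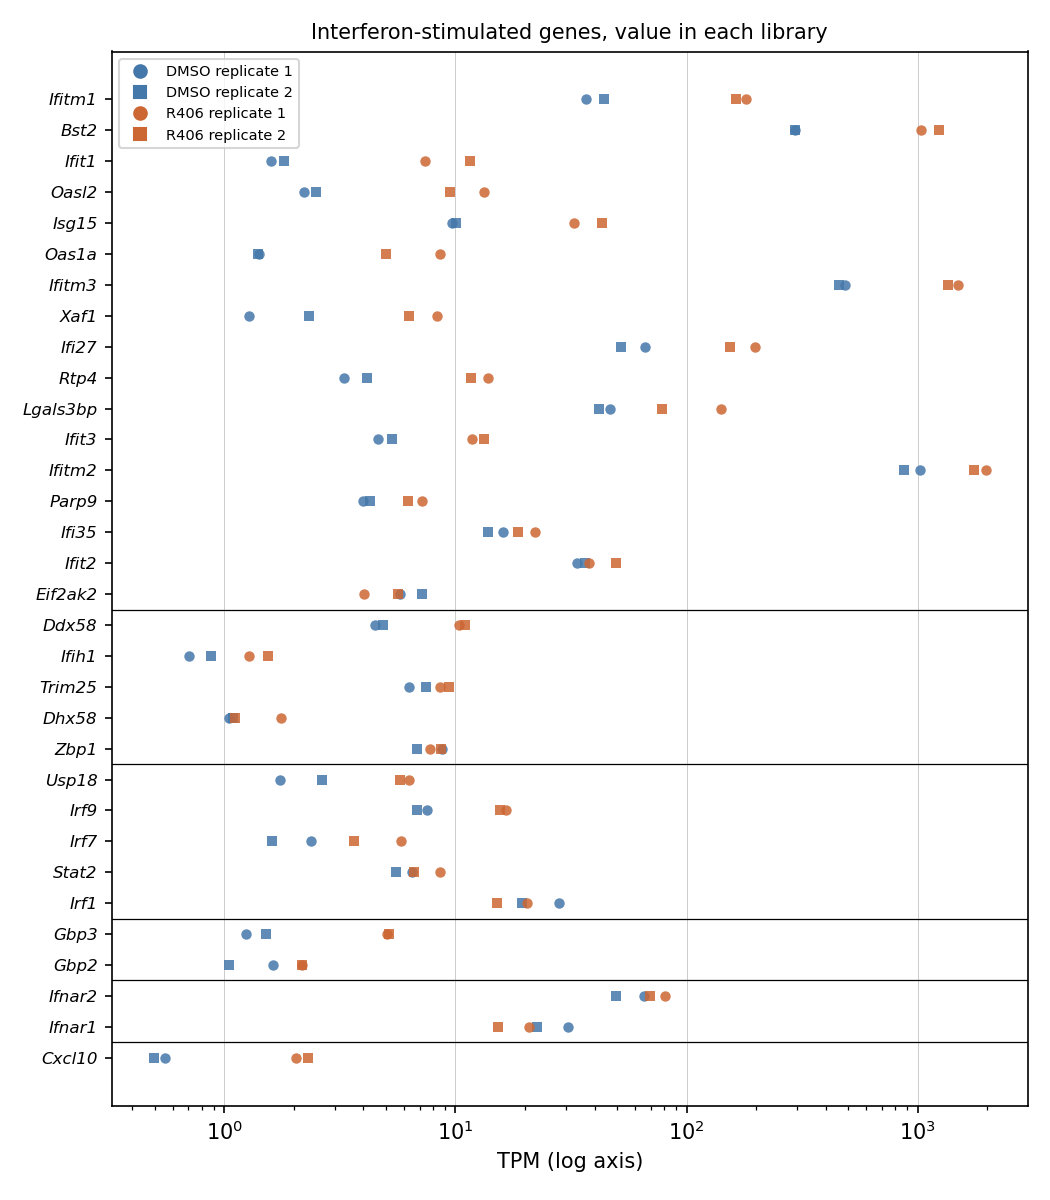
TPM on a log axis for each of the 32 tested genes in DMSO (blue) and R406 (orange), with replicate 1 as circles and replicate 2 as squares; lines divide, from the top, effectors, sensors, signalling genes, guanylate-binding proteins, receptors and the chemokine. Levels run from 0.495 TPM (Cxcl10, DMSO replicate 2) to 1973 TPM (Ifitm2, R406 replicate 1), and the orange points lie to the right of the blue in 28 rows.

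Of 25 effector genes, 17 were tested and 11 of these rose, with a median log2 difference of 1.55 over the 17. Effectors were thus 17 of the 32 tested genes and 11 of the 16 rises. Of all tested genes 4.26% were higher. The Ifitm family of small membrane proteins hinders the fusion of virus with endosomes, and Ifitm1 had the largest rise of the 41 genes on the log2(TPM + 1) scale. With a pseudocount of 0.1 Ifit1 (2.37), Oasl2 (2.21) and Oas1a (2.14) ranked above it (2.09). Ifitm1 (chr7:140967429-140969827) stood at 36.9 and 44.1 TPM in DMSO and 181 and 163 TPM in R406, a log2 difference of 2.06 ± 0.19 (SE, n = 2 libraries per group here and below; limma adjusted p = 0.0151). The groups were far apart, and Ifitm1 was the single listed gene that kept its call without any 1 of the libraries (adjusted p of 0.00562 to 0.0488). Ifitm3, the best studied restriction factor of the family, measured 486 and 459 TPM in DMSO and 1498 and 1357 TPM in R406 (log2 1.59, adjusted p = 0.0191). Ifitm2 was the most abundant of the 41 genes, at 1022 and 874 TPM against 1973 and 1749 TPM, and its difference of 0.97 ± 0.20 missed the threshold (adjusted p = 0.0541). Ifitm3 lost its call without DMSO replicate 1 (adjusted p = 0.0891) or replicate 2 (0.0801). Ifitm2 passed with median centring or with TPM rescaled without mitochondrial and ribosomal protein genes. The 3 genes lie beside each other on chromosome 7 and are close in sequence, so reads may have been split between them.

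Bst2, or tetherin, which holds budding virus particles on the cell surface, had nearly equal values in DMSO, 293 and 295 TPM, and 1033 and 1240 TPM in R406. Its log2 difference was 1.94 ± 0.19 (limma adjusted p = 0.0165). Bst2 is also a marker of plasmacytoid dendritic cells. Of other markers of that type Siglech was listed at 0 in all 4 libraries, Irf8 stood at 0.182 to 0.759 TPM, and Tcf4 stood at 43.7 and 46.7 against 27.9 and 30.8 TPM (adjusted p = 0.112). The part of such cells in the Bst2 values was not tested. Isg15, a ubiquitin-like protein that is joined to other proteins, stood at 9.68 and 10.1 TPM in DMSO and 32.7 and 43.1 TPM in R406 (log2 1.83, adjusted p = 0.0192). In both genes the groups were far apart, and both calls were lost without DMSO replicate 1 (adjusted p = 0.0603 for Bst2 and 0.0628 for Isg15).

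The Ifit genes, whose products bind foreign RNA ends and block translation gave 2 calls among 3 genes. Ifit1 stood at 1.60 and 1.82 TPM in DMSO and 7.38 and 11.5 TPM in R406 (log2 1.92 ± 0.26, limma adjusted p = 0.0239). Ifit3, a partner of Ifit1, stood at 4.63 and 5.32 against 11.8 and 13.3 TPM (log2 1.18, adjusted p = 0.0332). Ifit2, the most abundant of the family in DMSO, stood at 33.6 and 36.4 against 37.8 and 49.3 TPM. Its difference of 0.30 ± 0.21 was not called (adjusted p = 0.442), and the R406 libraries lay just above the DMSO libraries. The difference between Ifit1 and Ifit2 was itself not tested. Without DMSO replicate 1 neither call held (adjusted p = 0.0653 for Ifit1 and 0.171 for Ifit3), and Ifit3 also lost its call without DMSO replicate 2 (0.0955) or R406 replicate 2 (0.0541). Ifit3 shares most of its sequence with Ifit3b, which stood at 0.487 to 1.76 TPM, so the Ifit3 value is uncertain.

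Oligoadenylate synthetases make the messenger that turns on RNase L. Oas1a rose from 1.41 and 1.40 TPM to 8.55 and 5.02 TPM (log2 1.66 ± 0.28, limma adjusted p = 0.0352). The synthetase-like gene Oasl2 rose from 2.2 and 2.49 TPM to 13.3 and 9.45 TPM (log2 1.87, adjusted p = 0.0200). In both, the lower R406 library stood more than 3 times above the higher DMSO library. Both calls were lost without DMSO replicate 1 (adjusted p = 0.0897 and 0.0633), and that of Oas1a also without DMSO replicate 2 (0.0632) or with a pseudocount of 5 (0.0507). Oas1a has close copies in the same cluster on chromosome 5, among them Oas1g, which also rose (0.535 and 0.396 to 2.83 and 2.06 TPM, adjusted p = 0.0374) and passed the level filter through its R406 values, so these values may share reads. Oas2, Oas3 and Oasl1 were too low to be tested.

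Among the other effectors Ifi27, a mitochondrial protein tied to apoptosis, rose from 66.2 and 52.1 TPM to 197 and 154 TPM (log2 1.55, limma adjusted p = 0.0286). Rtp4, a receptor transporter that inhibits virus replication, rose from 3.29 and 4.13 TPM to 13.8 and 11.7 TPM (log2 1.55, adjusted p = 0.0239). Xaf1, an antagonist of the apoptosis inhibitor Xiap, rose from 1.29 and 2.33 TPM to 8.35 and 6.29 TPM (log2 1.58, adjusted p = 0.0374). In all 3 the groups were well separated. Without DMSO replicate 1 the adjusted p was 0.0730 for Ifi27, 0.0976 for Rtp4 and 0.120 for Xaf1, and without DMSO replicate 2 it was 0.102 for Ifi27. Lgals3bp, a secreted galectin ligand, had a high library: 46.7 and 41.6 TPM in DMSO and 141 and 77.9 TPM in R406 (log2 1.23 ± 0.32, adjusted p = 0.0884). It passed without R406 replicate 2 (adjusted p = 0.0138), and with all 4 libraries after quantile normalization (0.0292), median centring (0.0314) or rescaling of TPM (0.0414).

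The remaining effectors were not called. Parp9, a partner of the ubiquitin ligase Dtx3l, stood at 4.00 and 4.26 TPM in DMSO and 7.15 and 6.21 TPM in R406 (log2 0.58 ± 0.19, limma adjusted p = 0.133). Ifi35 stood at 16.0 and 13.8 against 22.0 and 18.7 TPM (log2 0.42, adjusted p = 0.257). Eif2ak2, the kinase PKR that halts translation on sensing double-stranded RNA, went the other way, at 5.78 and 7.14 against 4.02 and 5.63 TPM (log2 −0.36 ± 0.24, adjusted p = 0.393). It was the single tested effector with a negative difference.

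**Figure D3:**
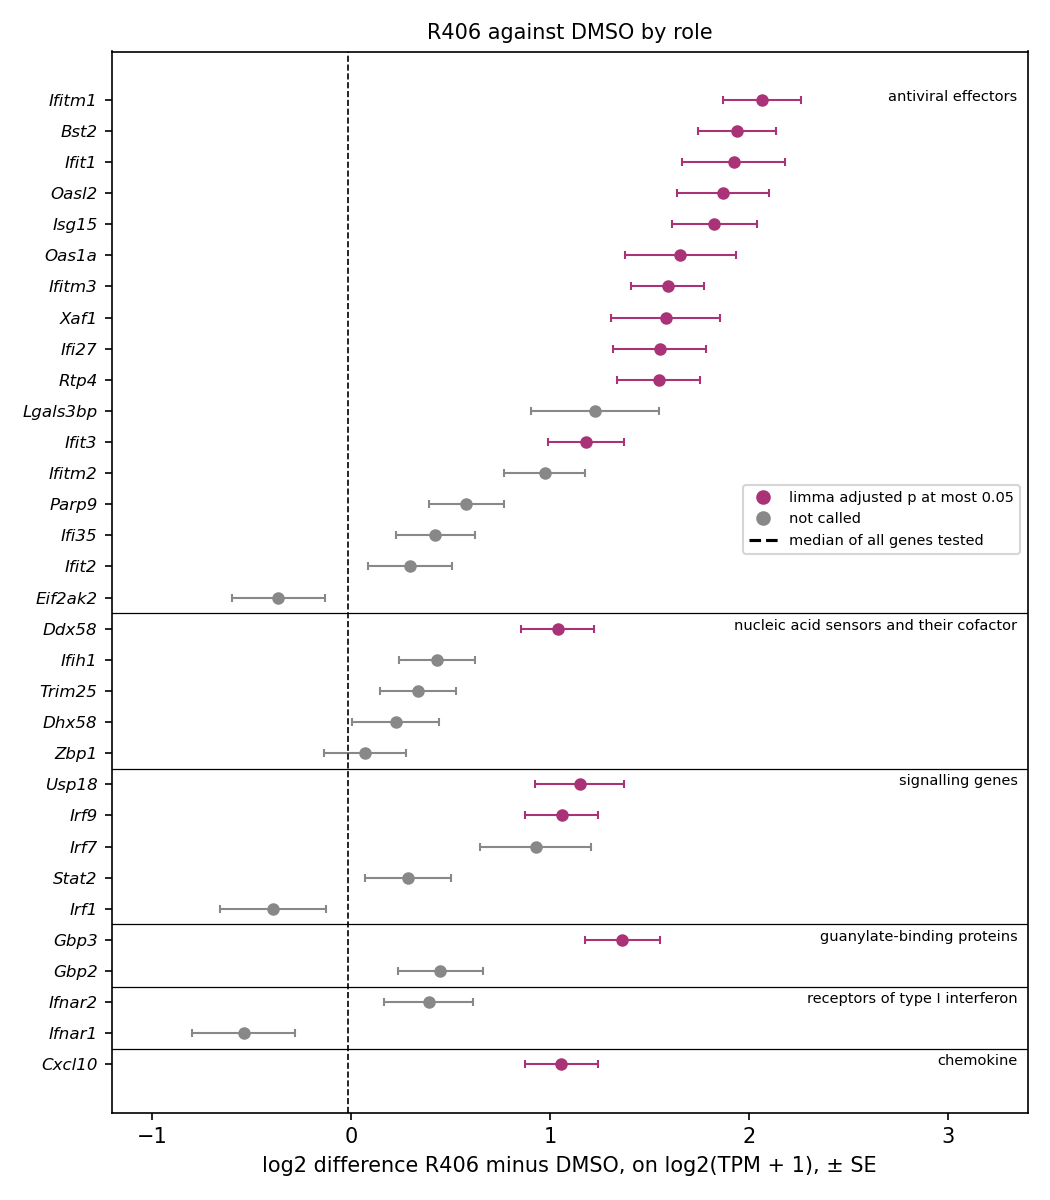
Difference between R406 and DMSO on the log2(TPM + 1) scale with its standard error from limma (n = 2 libraries per group), for the 32 tested genes by role; purple points have an adjusted p of at most 0.05 and the dashed line is the median of all genes tested, −0.02. Of 17 effectors 11 are purple, against 1 of 5 sensors, 2 of 5 signalling genes, 1 of 2 guanylate-binding proteins, 0 of 2 receptors and the chemokine Cxcl10.

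Of 5 sensors and their cofactor, 1 rose, where 4.26% of all tested genes did, and the median log2 difference was 0.34. Ddx58, the RIG-I sensor of viral RNA ends, rose from 4.49 and 4.88 TPM to 10.3 and 11.0 TPM (log2 1.04 ± 0.18, limma adjusted p = 0.0381). It lost its call on leaving out any 1 library (adjusted p of 0.0711 to 0.209). Ifih1, the sensor MDA5 of long double-stranded RNA, stood at 0.701 and 0.874 against 1.28 and 1.55 TPM (adjusted p = 0.235), and passed the level filter through its R406 values. Dhx58, the related helicase LGP2, stood at 1.05 and 1.09 against 1.76 and 1.11 TPM (adjusted p = 0.575). Trim25, a ubiquitin ligase that acts with RIG-I, stood at 6.32 and 7.44 against 8.54 and 9.34 TPM (adjusted p = 0.339). Zbp1, a sensor of left-handed nucleic acids, overlapped between the groups, at 8.74 and 6.85 against 7.77 and 8.62 TPM. Whether sensors differed from effectors was not tested.

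Of 5 signalling genes, 2 rose, where 4.26% of all tested genes did, and the median log2 difference was 0.93. Irf9, the DNA-binding subunit of the interferon-activated complex, rose from 7.57 and 6.84 TPM to 16.5 and 15.7 TPM (log2 1.06 ± 0.18, limma adjusted p = 0.0373). Usp18, which removes Isg15 from proteins and damps the receptor, rose from 1.74 and 2.64 TPM to 6.27 and 5.75 TPM (log2 1.15 ± 0.22, adjusted p = 0.0478). Usp18 was the closest of the 16 to the threshold. Irf9 lost its call on leaving out any 1 library (adjusted p of 0.0547 to 0.180). Usp18 kept it only without R406 replicate 2 and lost it with a pseudocount of 0.1 (adjusted p = 0.0523). Irf7, an amplifier of interferon genes, stood at 2.37 and 1.61 against 5.84 and 3.66 TPM (log2 0.93 ± 0.28, adjusted p = 0.114), and passed without R406 replicate 2 (adjusted p = 0.0454). Stat2, the partner of Irf9, stood at 6.49 and 5.54 against 8.57 and 6.60 TPM (log2 0.28, adjusted p = 0.467). Irf1, a factor that interferon gamma induces strongly, overlapped between the groups, at 27.9 and 19.4 against 20.3 and 15.1 TPM (log2 −0.39 ± 0.27, adjusted p = 0.421).

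Guanylate-binding proteins are GTPases that attack the compartments of pathogens. Gbp3 rose from 1.24 and 1.51 TPM to 5.08 and 5.14 TPM (log2 1.36 ± 0.19, limma adjusted p = 0.0248), a call that was lost without DMSO replicate 1 (0.103) or replicate 2 (0.0509). Gbp2 stood at 1.63 and 1.05 against 2.18 and 2.16 TPM (log2 0.45, adjusted p = 0.262), and Gbp7, at 0.219 to 0.843 TPM, was too low to be tested. Gbp8, from the wider list of this family, fell from 2.68 and 2.46 TPM to 0.475 and 0.430 TPM (log2 −1.30 ± 0.18, adjusted p = 0.0261, and 0.0825 without DMSO replicate 1), and passed the level filter through its DMSO values. Gbp genes are close copies of each other, so reads may have been split between them. Cxcl10, a chemokine that draws T cells, was low, at 0.553 and 0.495 TPM in DMSO and 2.05 and 2.29 TPM in R406, and rose (log2 1.06 ± 0.18, adjusted p = 0.0374). It passed the level filter through its R406 values, and its groups did not overlap. Its call held only without R406 replicate 1 (adjusted p = 0.0459), the others lying between 0.0584 and 0.128.

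The 9 genes too low to be tested were Mx1, Mx2, Oas2, Oas3, Oasl1, Rsad2, Ifi44, Parp14 and Gbp7. Among them are classical targets that interferon raises strongly in other cells. Their values ran from 0 to 1.12 TPM, the highest being Mx2 in R406 replicate 1. Both R406 libraries lay above both DMSO libraries in Mx2, Oas2, Parp14 and Gbp7. The groups overlapped in Mx1, Oas3, Oasl1, Rsad2 and Ifi44. Mx2 stood at 0.175 and 0.336 TPM in DMSO and 1.12 and 0.574 TPM in R406. Rsad2, or viperin, stood at 0.134 and 0.148 TPM in DMSO and 0.147 and 0.185 TPM in R406. Mx1 was listed at 0 in 1 library of each group and at 0.0194 and 0.0603 TPM in the others, and many laboratory strains carry a broken Mx1 gene.

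Neither subunit of the type I receptor passed the test, and of the ligand genes 1 rose. Ifnar1 stood at 30.8 and 22.5 TPM in DMSO and 20.8 and 15.3 TPM in R406 (log2 −0.54 ± 0.26, limma adjusted p = 0.267). Ifnar2 stood at 65.3 and 49.4 against 81.0 and 69.2 TPM (log2 0.39 ± 0.22, adjusted p = 0.340). The 2 subunits of the type I receptor had differences of opposite sign, and the groups did not overlap in either. With a block for the replicate number Ifnar1 was called lower (limma adjusted p = 0.0220) and Ifnar2 higher (0.0374). The labels do not say that these numbers mark a shared culture, and that fit called more of all tested genes too. The receptor genes of interferon gamma, Ifngr1 and Ifngr2, stood at 70.2 and 63.6 against 65.6 and 67.4 TPM and at 28.5 and 31.3 against 21.5 and 13.3 TPM (adjusted p = 0.987 and 0.153). Ifnlr1, the specific subunit of the type III receptor, was too low to be tested, at 0.342 and 0.399 against 1.13 and 0.958 TPM.

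Of 21 interferon genes, 14 were listed at 0 in every library, among them every Ifna gene examined and Ifnab. Ifnk, which encodes interferon kappa, a type I interferon known from keratinocytes, was the single ligand gene high enough to be tested. It rose from 0.368 and 1.92 TPM to 10.1 and 15.4 TPM (log2 2.76 ± 0.43, limma adjusted p = 0.0309). The DMSO libraries differed several-fold from each other but stayed well below both R406 libraries, and the call held on leaving out any 1 library (adjusted p of 0.00863 to 0.0438) and was lost with a pseudocount of 0.1 (0.0510). Ifnk lies at chr4:35152055-35154019. The other ligand genes above 0 were low. Ifng stood at 0.260 and 0.364 TPM in DMSO and 0.163 and 0.0277 TPM in R406, and Ifnz at 0.0889 and 0.0672 against 0.592 and 0.114 TPM. Ifnb1 was above 0 only in DMSO replicate 1 (0.0624 TPM), Ifne only in DMSO replicate 2 (0.197 TPM), Ifnl2 only in R406 replicate 2 (0.0815 TPM) and Ifnl3 in both R406 libraries (0.0713 and 0.136 TPM).

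Kinases and factors between receptor and nucleus gave 1 call, a fall, among 10 tested genes, near the 8.31% of all tested genes called in either direction. Jak1, the kinase shared by all interferon receptors, fell from 64.9 and 60.5 TPM to 31.7 and 29.6 TPM (log2 −1.01 ± 0.18, limma adjusted p = 0.0381). No 1 library could be left out without losing the call (adjusted p of 0.0705 to 0.228), though the groups were far apart. Jak2, which serves the interferon gamma receptor, stood at 11.3 and 13.9 against 6.82 and 6.57 TPM (adjusted p = 0.0743). Tyk2, the partner kinase of Jak1 at the type I receptor, stood at 5.07 and 3.81 against 7.31 and 5.07 TPM (adjusted p = 0.392). The groups did not overlap in Jak2, and an adjusted p above the threshold does not show that it was unchanged.

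**Figure D4:**
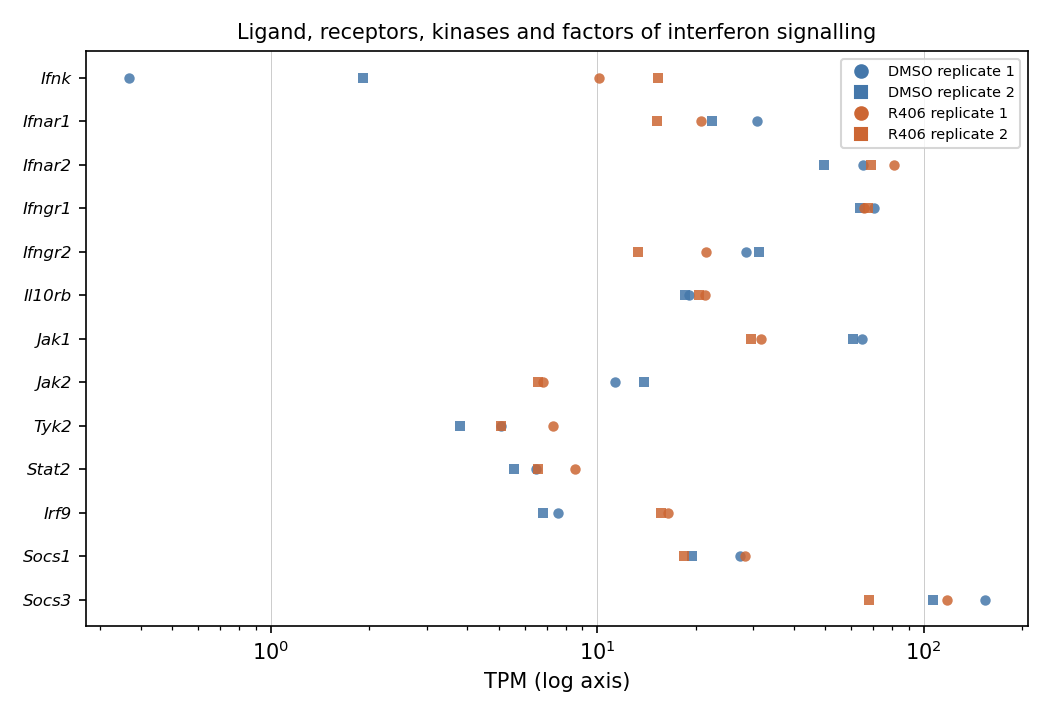
TPM on a log axis of the interferon kappa gene Ifnk, of receptor, kinase and factor genes and of the feedback genes Socs1 and Socs3, in each DMSO (blue) and R406 (orange) library. Ifnk stands at 0.368 and 1.92 TPM in DMSO and 10.1 and 15.4 TPM in R406, Jak1 lies lower and Irf9 higher in both R406 libraries, and the other genes shown did not pass the test.

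Genes that sense infection upstream of interferon gave 1 call among 14 tested, also near that share of 8.31%. Irf5, a factor of myeloid and B cells, fell from 2.16 and 1.91 TPM to 0.503 and 0.477 TPM (log2 −1.03, limma adjusted p = 0.0394), and lost the call on leaving out any 1 library (adjusted p of 0.0598 to 0.147). It passed the level filter through its DMSO values. Most of the tested macrophage markers fell in the same libraries, and their part in the Irf5 value was not tested. A wider list of 47 other interferon-stimulated genes had 27 tested members, of which 3 rose and 2 fell, with a median log2 difference of 0.31. Of all tested genes 4.26% rose and 4.05% fell. The risers were Ifi27l2a, at 3.87 and 9.96 against 44.9 and 85.8 TPM (log2 3.11 ± 0.50, adjusted p = 0.0332), Oas1g and Lgals9, at 14.0 and 13.4 against 47.9 and 31.8 TPM (adjusted p = 0.0377). Ifi27l2a had the largest rise of the interferon genes tested on the log2(TPM + 1) scale, while Ifnk ranked above it with a pseudocount of 0.1 (log2 3.69 against 3.30). The annotated span of Ifi27l2a (chr12:103433873-103443680) holds that of Ifi27 (chr12:103434189-103440245), so the rises of these 2 genes may share reads. Ifi27l2a kept its call on leaving out any 1 library (adjusted p of 0.00592 to 0.0479). The fallers were Slfn5, at 3.29 and 3.75 against 0.785 and 0.851 TPM (adjusted p = 0.0264), and Slfn2, at 7.28 and 5.68 against 2.11 and 1.14 TPM (adjusted p = 0.0377), both of a family of growth regulators found mainly in blood cells. Oas1g and Lgals9 lost the call in most refits with a library left out, and Slfn5 and Slfn2 in some. Across these refits the log2 difference was 1.06 to 1.39 for Oas1g and 1.16 to 1.74 for Lgals9. It was −1.38 to −1.24 for Slfn5 and −1.79 to −1.26 for Slfn2. Oas1g passed the level filter through its R406 values and Slfn5 through its DMSO values. Both R406 libraries were above both DMSO libraries in 15 of these 27 genes and below in 5, where all tested genes gave 25.9% and 30.2%. Of the 20 GTPases and chemokines linked to interferon gamma, 19 were matched, 4 were tested, 0 rose and Gbp8 fell.

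**Figure D5:**
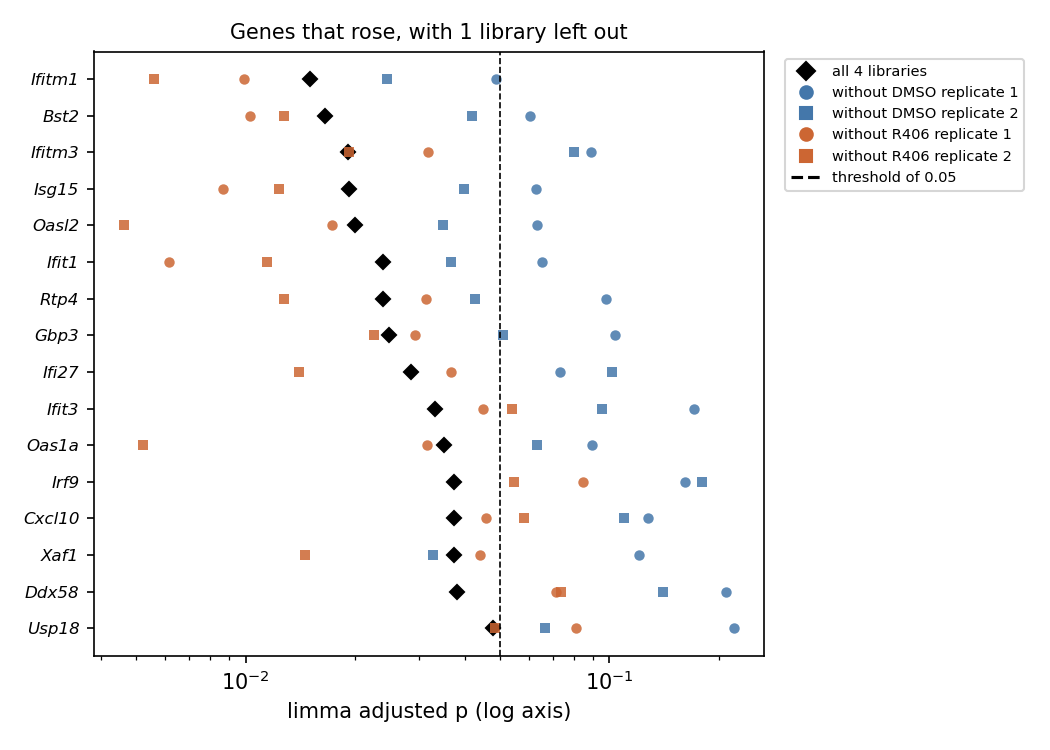
Adjusted p from limma for the 16 genes that rose, with all 4 libraries (black) and without each library in turn, on a log axis with the threshold of 0.05 as a dashed line. Without DMSO replicate 1 the points of 15 genes lie to the right of the line and Ifitm1 lies at 0.0488.

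Nfatc1 binding gave a readout that the gene list did not use. Peaks within 5 kb of a gene were found at 16 of the 41 genes with DMSO (39.0%) and at 24 with R406 (58.5%). Among 13303 tested genes with a matched position the shares were 53.3% and 71.3%, so the listed genes did not stand above the rest. Of the 32 tested genes, 14 had a peak with DMSO and 21 with R406. The R406 list held 36885 peaks and the DMSO list 21246, with 1 library each, so no difference between conditions was tested. In all, 15 of the genes had a peak in both lists, Zbp1 only with DMSO, and 9 only with R406: Ddx58, Dhx58, Ifit1, Ifitm3, Ifnar2, Irf1, Isg15, Lgals3bp and Mx2. Of the 16 genes that rose, 10 had a peak with R406, and Cxcl10, Ifi27, Irf9, Oas1a, Oasl2 and Xaf1 had none in either list.

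A peak summit within 1 kb of an annotated start was found at 8 of the 31 windowed genes with DMSO and at 14 with R406, against 38.8% and 55.8% of tested genes. The strongest peak at any of the 41 genes lay on the Ifitm2 promoter, chr7:140955187-140957226 with DMSO and chr7:140955471-140957342 with R406. The authors' fold enrichment was 70.7 with DMSO and 143 with R406, with ranks of 39 and 25 within their own lists, and the summits lay at −203 and −226 from the start. Its neighbours had weaker or more distant peaks: at Ifitm1 the highest fold was 18.2 with DMSO and 37.3 with R406, at 3804 and 3875 bases past the start, and at Ifitm3 a peak of fold 5.18 was listed with R406. At Bst2 the folds at the start were 5.10 and 6.33. Gbp3 had a peak at its start with R406 (fold 22.8, summit 314 bases past a start) and none there with DMSO. Cells for CUT&Tag carried added Nfatc1, so these peaks describe the tagged protein in those cells and not in the cells of the RNA libraries.

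The upstream 250 bases of Ifitm2 are printed because both peaks cover them; capitals mark the NFAT core TTTCC on either strand.
Ifitm2, chr7:140955962-140956211, minus strand: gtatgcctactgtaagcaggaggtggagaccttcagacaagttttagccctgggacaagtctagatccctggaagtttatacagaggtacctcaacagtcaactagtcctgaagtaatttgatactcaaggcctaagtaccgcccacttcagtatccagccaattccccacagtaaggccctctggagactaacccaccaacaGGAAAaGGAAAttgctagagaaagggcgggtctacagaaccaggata
Both NFAT cores there, at −47 to −43 and −41 to −37, overlap the response element core of this promoter at −46 to −37. Of the 25 response element cores in the windows of the listed genes 14 overlapped an NFAT core. Part of this overlap is built into the letters. A G just before a GAAA of the response element core spells GGAAA, which is TTTCC on the other strand. The share of overlapping cores in the windows of other genes was not computed, so whether 14 is more than usual was not tested. The NFAT core is also common: it was present in the windows of 64.4% of all genes and of 25 of the 31, which counts windows and not overlaps.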

How the data were processed

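RNA was measured in 2 DMSO and 2 R406 libraries of mouse fibroblasts, and CUT&Tag of FLAG-tagged Nfatc1 in 1 DMSO and 1 R406 library. A blank CUT&Tag library without primary antibody was not analysed here. The deposited TPM values were made by the authors with HISAT2 2.1.0 and StringTie 2.0 among the tools that the submitters' processing notes name, on mm10, from a kit that does not mark strand per the labels' protocols. Raw counts were not used, so depth is unknown and no counting interval is given. TPM sums to a fixed total, so a few abundant genes can shift all others.

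The 41 genes and the other lists, markers and motifs were chosen with earlier results of these data known. Symbols were matched to the identifiers in the deposited table, and to RefSeq positions and promoters of GRCm38.p6, the assembly of mm10. Genes averaging 1 TPM or more across all 4 libraries (13929 of 53715) were compared two-sided on log2(TPM + 1) with limma 3.58.1 (R 4.3.3), with a trend in the prior variance, both groups in 1 fit and no covariate. Fold differences are on that scale, which understates those of low genes. p-values were adjusted by Benjamini-Hochberg over all tested genes with a threshold of 0.05. The script was tested on simulated data. It recovered 54 of 100 genes given a log2 difference of 2 and 80 of 100 given 4, with 5 false calls. The changed genes were drawn only from those above a set level in DMSO, which several listed genes, such as Ifit1 and Oas1a, did not reach. Of the tested listed genes only Ifitm1 had a difference above 2. Recovery at lower levels or smaller differences was not simulated. A listed gene that was not called may thus still differ. Every listed gene is named. From the other pathway lists the text gives up to 3 calls per list and direction, the receptor genes, Jak1, Tyk2 and ligands above 0. Jak2 was added after its values were seen. Promoters were printed for up to 8 called genes with a response element core, smallest p first, and for Ifitm2 after its peak was seen. Some genes of the other lists are not reported here.

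The peak lists were deposited by the authors, with MACS2 2.1.2 and Bowtie2 2.2.5 named in the submitters' processing notes. Per the file layout they hold a score, a fold enrichment (a ratio), a −log10 p-value and a −log10 q-value for each peak, which are the authors' values, called on each library separately. A gene was counted as having a peak where a peak overlapped its span extended by 5 kb by at least 1 base.

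Alternatives were other pseudocounts (0.1 and 5), a stricter filter (5 TPM) or none, quantile normalization, median centring, TPM rescaled without mitochondrial and ribosomal protein genes, no trend, a block for the replicate number, leaving out each library, and other peak thresholds and windows.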

Additional observations from a re-analysis of the deposited data

How the results depend on the processing

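With 2 libraries per group, calls depended on single libraries. Leaving out each in turn gave 1 to 14 listed genes higher (16 with all 4 libraries), a median log2 difference of 0.95 to 1.09, 159 to 914 of all genes higher and 158 to 574 lower. Ifngr1 ranged from −0.077 to 0.064 and Zbp1 from −0.085 to 0.23. With no filter 0 listed genes were higher by limma (22 at an unadjusted p under 0.05), the median was 0.54, and 0 of all genes were higher or lower (5394 at an unadjusted p under 0.05). The cause was not tested.

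The median was 1.19 with a pseudocount of 0.1, 0.64 with 5, 1.01 after quantile normalization, 1.09 after median centring and 1.14 with rescaled TPM, where 15, 15, 17, 19 and 18 listed genes were higher. With a mean of at least 5 TPM, which leaves fewer genes to test, 311 of all genes were higher and 332 lower, and 11 listed genes were higher. Quantile normalization gave 877 higher and 850 lower genes, median centring 933 and 755, and rescaled TPM 902 and 737. Ifngr1 changed sign, to 0.051, 0.037 and 0.051, under these 3 scalings.

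The replicate numbers are not said to mark a shared culture, and DMSO and R406 replicates 1 deviated together from the group means with r = 0.556 over genes. With the replicate block 22 listed genes were higher, among them Ifnar2 (adjusted p = 0.0374), and 1, Ifnar1, lower (0.0220), with 2128 and 2535 of all genes. An Nfatc1 peak within 20 kb lay at 28 listed genes with DMSO, the wider window taking in more peaks. The other peak settings stayed within 1.5 times of the reported counts. TPM keeps no depth, so differences among genes near 1 TPM cannot be weighed by reads.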
